A study of Mus musculus with 27 samples.

Results

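Mouse embryonic fibroblasts that lack PKBalpha, the protein kinase encoded by Akt1, were compared between 4 h and 24 h after gamma irradiation with 10 Gy. Members were chosen by sample title, and they were 6 of the 27 arrays of the series, 3 of knockout cells taken at 4 h and 3 taken at 24 h. The remaining arrays served as reference and as part of the statistical model: 3 of untreated knockout cells, and 3 each of untreated cells, cells at 4 h and cells at 24 h of a wild-type line and of a knockout line with PKBalpha put back. All cells were labelled female and passage 45, were grown with 10% serum and were cultured for 24 h before irradiation. The series' design text calls the 3 arrays of a group biological replicates. The labels do not say how the allele was made, how many clones or embryos gave each line, or when untreated cells were harvested, so time in culture cannot be told apart from irradiation. The reconstituted line is called line R here, because its mean readings on the brightest Akt1 probe set were 19.6 to 22.5 over its 3 groups, against 3040 to 4170 in the wild type. The sequence put back may lie outside the probe set, so these readings do not show whether PKBalpha was restored.

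Akt kinases pass growth factor signals from PI3 kinase to cell growth, survival and metabolism, partly by keeping FOXO transcription factors out of the nucleus. After double-strand breaks, checkpoint kinases and p53 hold the cell cycle, breaks are repaired by end joining or homologous recombination, and transcripts for DNA synthesis follow the cell cycle through E2F factors. Fibroblasts also make and remodel the collagen matrix and answer stress through inflammatory, interferon and amino acid programmes.

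Values are array intensities on the scale the authors deposited, and differences are log2 values of 24 h minus 4 h with the standard error (SE) of the model, so that 1 is a doubling. A gene passed when its limma p value, adjusted over all 18193 genes by the Benjamini-Hochberg method, was under 0.05. The background level, 48.3, was the highest reading of Y-linked probe sets in these female cells. Where the lower group was below it, the fold was computed against 48.3 and is a lower bound. On the 6 arrays the median intensity ran from 54.7 to 67.0, and 10577 to 11146 genes were above background. In such bulk RNA, fewer cells of a type and less RNA per cell cannot be told apart. Control probe sets at the ends of the Gapdh transcript set 5 arrays of the series apart, by a limit chosen here. None of the 6 was among them, although replicate 2 of untreated knockout cells was. Of the 6, replicate 2 at 24 h came nearest, with a 3' minus 5' difference of -0.298 (log2) against -0.406 to -0.357 in the others. That array also had the highest median intensity of the 6. Akt1 read 22.8, 34.1 and 65.5 at 4 h and 37.1, 9.55 and 17.5 at 24 h (replicates 0, 1 and 2, the order used throughout), with geometric means of 37.0 and 18.4 and 1 reading above background. Of the 3 other Akt1 probe sets, 2 were below background in knockout cells, and 1 had means of 55.0 untreated, 26.2 at 4 h and 72.0 at 24 h (1.46 ± 0.28, adjusted p = 0.084 over all probe sets). The labels do not say which part of Akt1 was deleted. Akt2, the gene of the related kinase PKBbeta, read 658, 634 and 809 at 4 h and 685, 750 and 710 at 24 h (0.04 ± 0.14, adjusted p = 0.98). All 12 fibroblast markers were above background, and their summed intensity was 132000 to 150000 at 4 h and 147000 to 160000 at 24 h.

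From 4 h to 24 h, 1 gene passed the test, and it rose: Cldn15, which encodes the tight junction protein claudin-15. The genes nearest to it were also higher at 24 h and included Cd74, C1s1, Saa3 and Sort1, which encode proteins of antigen presentation, complement, the acute phase and protein sorting. In the other direction, the smallest p values among genes above background belonged to Hey1, Tardbp and Rbm12. The call of Cldn15 was 1 of 18193 genes (0.0055%). At an unadjusted p under 0.05 there were 1023 genes higher (5.62%) and 472 lower (2.59%), 1495 in all (8.22%). The 3 arrays of each time did not overlap for 1928 genes higher at 24 h (10.6%) and 1331 lower (7.32%), together 17.9%. Genes higher at 24 h were 59.2% of the non-overlapping genes as deposited, 52.4% after quantile normalization and 35.2% after the arrays were set to equal medians, a scaling that moved the median of all genes from 0.04 to -0.06.

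Cldn15 read 26.5, 34.9 and 38.8 at 4 h and 103, 114 and 82.9 at 24 h. All readings at 4 h were below background and all at 24 h above it, and it was at least 2.05-fold higher at 24 h (1.59 ± 0.24, adjusted p = 0.034, limma). Cldn15 kept its direction in 18 alternative settings and passed in 10 of them, with adjusted p from 0.0089 to 0.29. It missed the threshold without replicate 0 or 1 of the 4 h group, without replicate 1 or 2 of the 24 h group, after either rescaling of the arrays, on the compared arrays alone and on the knockout arrays alone.

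Cd74, the invariant chain of class II antigen presentation, read 78.4, 58 and 65.3 at 4 h and 141, 277 and 204 at 24 h. The groups did not overlap, and the 2.99-fold difference did not pass (1.58 ± 0.27, adjusted p = 0.064). C1s1, a protease of the first complement complex, read 466, 394 and 352 at 4 h and 584, 1040 and 1260 at 24 h. Its groups did not overlap, replicate 0 was the lowest array of the 24 h group, and the difference was 2.28-fold (1.19 ± 0.21, adjusted p = 0.067). Saa3, an acute phase serum amyloid protein, read 3880, 3910 and 3990 at 4 h and 6120, 6930 and 7650 at 24 h. These groups lay well apart at a 1.75-fold difference (0.81 ± 0.14, adjusted p = 0.067).

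Sort1, the sorting receptor sortilin, read 169, 179 and 176 at 4 h and 269, 344 and 324 at 24 h, without overlap (0.83 ± 0.15, adjusted p = 0.067). Its 2 other probe sets gave larger differences of the same sign, 1.28 and 1.07. Aoc3, an amine oxidase that also serves in leukocyte adhesion, read 18.1, 6.03 and 20.9 at 4 h and 45.2, 97.1 and 82.1 at 24 h. All 4 h readings and 1 at 24 h were below background, so the difference was at least 1.47-fold (adjusted p = 0.067). Maats1, a gene of cilia and flagella, read 17.3, 20.4 and 21.5 at 4 h and 80.2, 71.3 and 64.9 at 24 h, which was at least 1.49-fold (adjusted p = 0.064). Another probe set of Maats1 was below background at both times. Ndrg2, of a family of stress- and differentiation-regulated genes, had means of 51.3 and 126 and no overlap (1.30 ± 0.25, adjusted p = 0.070).

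Hey1, a transcriptional repressor downstream of Notch, read 91.9, 68.4 and 75.5 at 4 h and 22.8, 8.86 and 25.9 at 24 h. All readings at 24 h were below background, which makes Hey1 at least 1.61-fold lower (-2.17 ± 0.43, adjusted p = 0.070). Tardbp, which encodes the RNA-binding protein TDP-43, read 6640, 6800 and 6770 at 4 h and 5460, 4370 and 4340 at 24 h. These groups did not overlap (-0.52 ± 0.10, adjusted p = 0.070), and the 4 other probe sets of Tardbp gave -0.58, -0.32, -0.13 and -0.04. Rbm12, another RNA-binding protein gene, had means of 1620 and 1110 without overlap (adjusted p = 0.087). Exo1, an exonuclease of mismatch repair and DNA end resection, read 1470, 1500 and 1560 at 4 h and 1210, 858 and 817 at 24 h, a 1.60-fold difference without overlap (-0.67 ± 0.15, adjusted p = 0.12). Another bright probe set of Exo1 gave -0.62, and a probe set below background gave 0.30. Rsl24d1, which acts in ribosome assembly, Ccdc43 and the zinc finger gene Zfp367 followed, with differences of -0.55, -0.48 and -0.54 and adjusted p of 0.15 to 0.17.

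**Figure D1:**
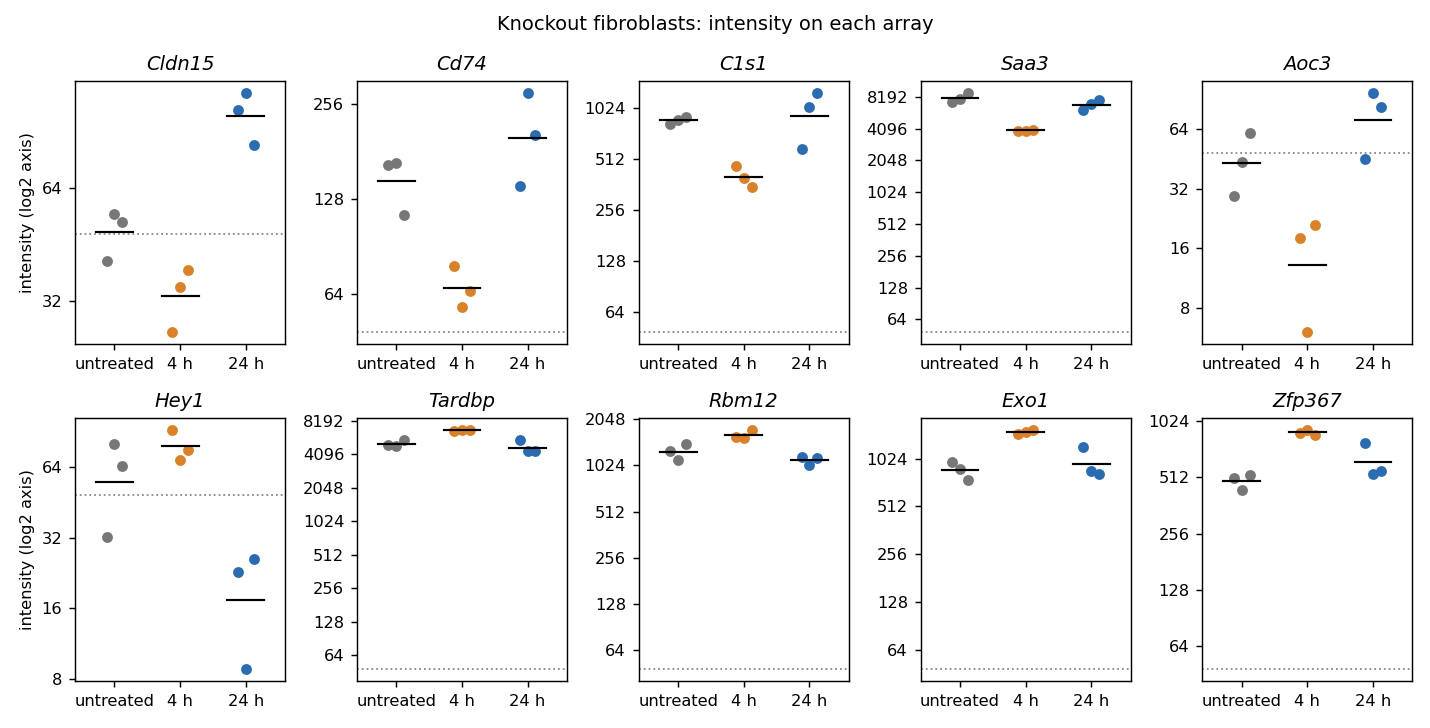
Intensity (log2 axis) on each knockout array, untreated, at 4 h and at 24 h, for 10 genes; points are arrays, bars are geometric means of 3 arrays and the dotted line is the background level of 48.3. Cldn15, Cd74, C1s1, Saa3 and Aoc3 have all 24 h arrays above all 4 h arrays, and Hey1, Tardbp, Rbm12, Exo1 and Zfp367 have all 24 h arrays below them; of the 10, only Cldn15 passed the test.

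How many genes passed depended on which arrays and genes were tested. Leaving out replicate 0, 1 or 2 of the 4 h group gave 2, 0 and 9 genes (1267, 1224 and 1344 at an unadjusted p under 0.05), and leaving out replicate 0, 1 or 2 of the 24 h group gave 78 (61 higher, 17 lower), 1 (lower) and 0 genes (1980, 1083 and 1133). The 2 were 1700042O10Rik and Lair1 and the 1 was Bhlha15, all chosen for naming after their values were seen. On the 6 compared arrays alone no gene passed, with 1663 at an unadjusted p under 0.05, and without the 5 arrays that stand apart 56 passed, 43 higher and 13 lower. With testing limited to the 10972 genes above background at 4 h or 24 h, 34 passed, 31 higher and 3 lower, among them Cldn15, Maats1, Aoc3, Cd74, C1s1, Saa3, Sort1, Ndrg2, Hey1, Tardbp and Rbm12. Cldn15, Maats1, Aoc3 and Hey1 met that limit through 1 time only.

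The rest of the account follows 35 gene lists with 806 distinct measured members. These lists were chosen with earlier results of these data known, so their counts and medians are a description and no test. None of the 806 passed in limma over all genes, and 81 were higher and 49 lower at an unadjusted p under 0.05. With only genes above background tested, 5 passed, all higher: Nupr1, Pfkp, Saa3, Tgfbi and Xaf1. Lists are therefore described by how many members had arrays that did not overlap, read against 10.6% of all genes higher and 7.32% lower, and by the median difference, read against 0.04 for all genes. Wherever counts with equal array medians are given, they are to be read against 1069 of all 18193 genes higher and 1970 lower without overlap.

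**Figure D2:**
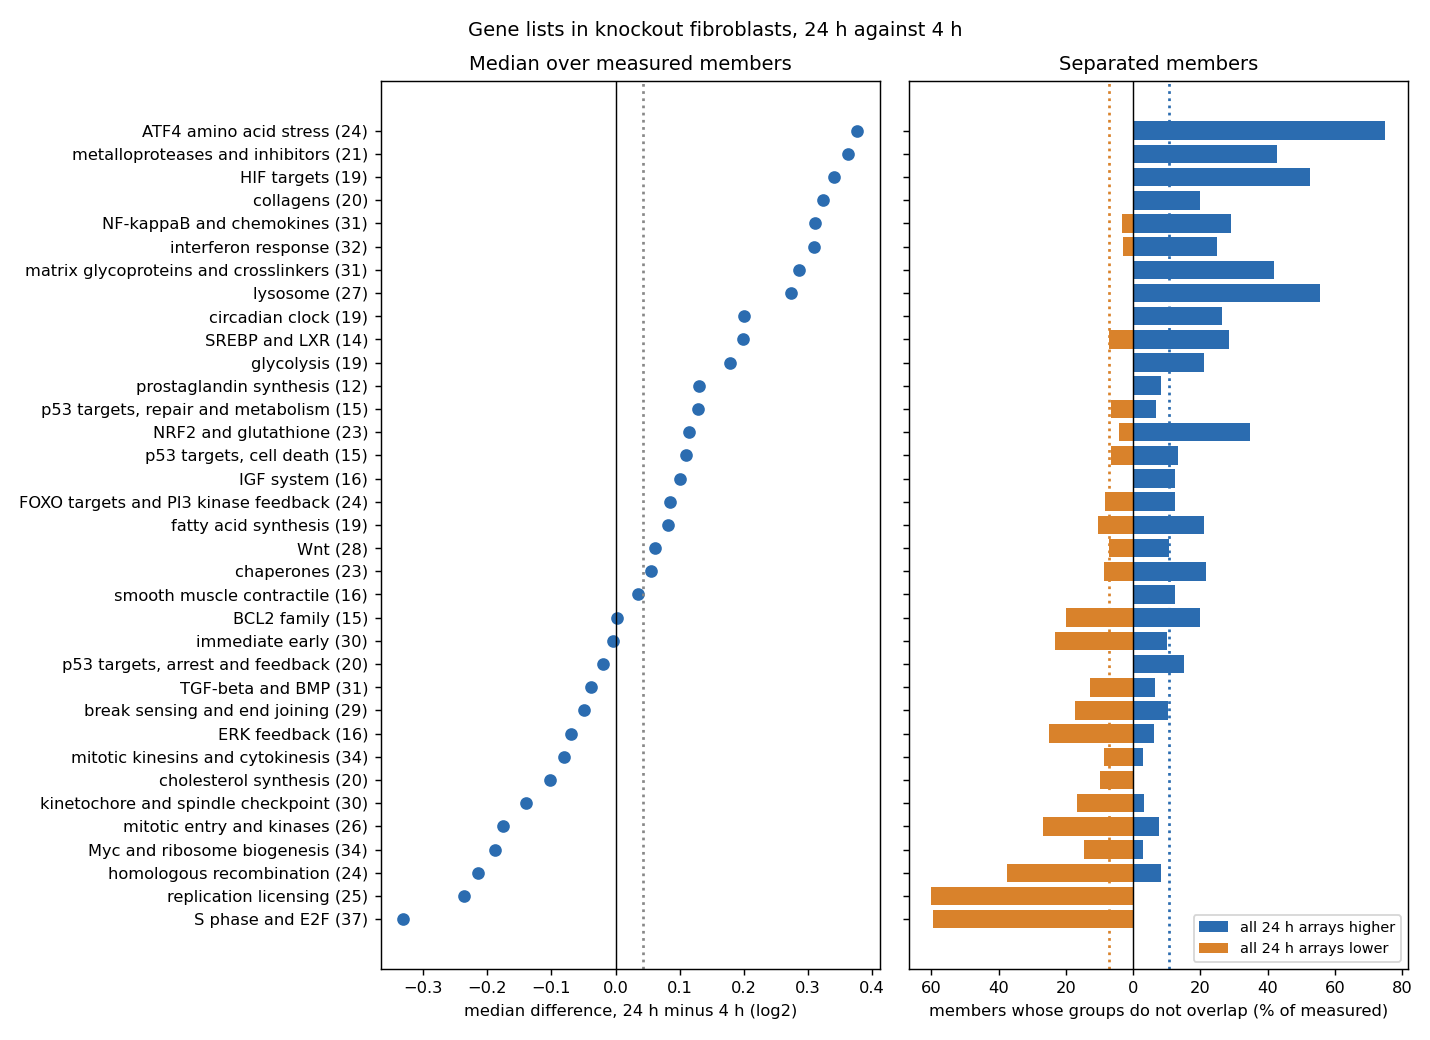
Left, median difference of the measured members of each of 35 lists (log2, 24 h minus 4 h; number of members in brackets), with the median of all genes, 0.04, dotted; right, percent of members whose 24 h arrays were all higher (blue) or all lower (orange) than the 4 h arrays, with the shares of all genes, 10.6% and 7.32%, dotted. The ATF4 list is highest at 0.38 and the S phase list lowest at -0.33.

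Genes of the amino acid stress response, which the transcription factor ATF4 drives, read higher at 24 h throughout. All 24 measured members had a positive difference (median 0.38), and 18 had arrays that did not overlap, all higher at 24 h; 8 were higher at an unadjusted p under 0.05. The median stayed between 0.28 and 0.40 over all alternatives. With equal array medians the non-overlapping members were 8 of 24, where 1069 of all 18193 genes were higher without overlap. Nupr1, a small stress-induced nuclear protein, read 1240, 1260 and 1590 at 4 h and 2300, 2660 and 2160 at 24 h (0.80 ± 0.17, adjusted p = 0.071). No 24 h array of Nupr1 overlapped the 4 h group, and a second probe set gave 0.76. Trib3, a pseudokinase that can bind Akt, read 469, 391 and 381 at 4 h and 682, 934 and 628 at 24 h (0.84 ± 0.26, adjusted p = 0.28). Ddit3, which encodes the stress factor CHOP, read 1320, 1320 and 1300 at 4 h and 1910, 2850 and 1930 at 24 h (0.74 ± 0.21, adjusted p = 0.21); its dimmer probe set gave 0.17. Asns, asparagine synthetase, read 4730, 4860 and 5110 at 4 h and 6620, 7740 and 6530 at 24 h (0.50 ± 0.15, adjusted p = 0.25). In each of these genes replicate 1 was the highest array at 24 h and the 2 groups did not overlap.

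Because all ATF4 members read higher, their promoters were searched on both strands for TGATGNAA, the composite element of ATF4 and C/EBP factors. Lists built around a factor can hold its element whatever the arrays read. The shares here and for the elements below therefore describe the lists and are no test of the differences. Of the 24 members, 22 had a promoter in the RefSeq table of build GRCm38.p6 (250 bases before to 50 after a transcript start), and 8 of these held the element (36.4%), against 4.51% of the 27025 genes of the table. Shown are Asns (chr6:7693160-7693459, minus strand) and Trib3 (chr2:152344011-152344310, minus strand), with the match in capitals.
Asns: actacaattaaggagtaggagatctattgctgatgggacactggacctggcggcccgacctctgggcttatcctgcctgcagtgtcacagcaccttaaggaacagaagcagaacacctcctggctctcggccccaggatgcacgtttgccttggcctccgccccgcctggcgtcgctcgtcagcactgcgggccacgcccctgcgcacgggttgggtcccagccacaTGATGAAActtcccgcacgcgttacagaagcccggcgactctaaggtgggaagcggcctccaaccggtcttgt
Trib3: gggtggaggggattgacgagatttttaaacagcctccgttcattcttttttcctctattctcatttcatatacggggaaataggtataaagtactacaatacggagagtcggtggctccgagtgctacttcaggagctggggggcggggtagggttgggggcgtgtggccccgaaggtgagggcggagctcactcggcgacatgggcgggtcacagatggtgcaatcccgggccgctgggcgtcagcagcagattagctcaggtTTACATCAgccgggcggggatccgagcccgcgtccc

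Lysosomal genes, which encode acid hydrolases, membrane proteins and proton pump subunits, also read higher. All 27 measured members had a positive difference (median 0.27, 0.17 to 0.36 over the alternatives), and 15 had arrays higher at 24 h without overlap; with equal array medians there were 6. Neu1, a sialidase, read 296, 275 and 285 at 4 h and 416, 486 and 510 at 24 h (0.72 ± 0.18, adjusted p = 0.17). Its 2 other probe sets were below background in knockout cells and gave -2.58 and 0.52, so that the mean over probe sets turned the sign of Neu1 (-0.45). Gla, alpha-galactosidase, read 541, 556 and 624 at 4 h and 933, 849 and 886 at 24 h (0.63 ± 0.17, adjusted p = 0.18). Ctsk, the collagen-degrading cathepsin K, had means of 444 and 696 (adjusted p = 0.46), and Psap, the precursor of the saposins, 7230 and 9030 (adjusted p = 0.71). All 4 genes had groups that did not overlap.

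The E-box CACGTG, which TFEB and related factors bind, was found in the promoters of 10 of 23 lysosomal genes with an entry (43.5%), against 8.09% of all genes in the table. The promoter of Gla (chrX:134600956-134601255, minus strand) held 2 copies, in capitals, and is shown because Gla was among the members with the largest differences.
Gla: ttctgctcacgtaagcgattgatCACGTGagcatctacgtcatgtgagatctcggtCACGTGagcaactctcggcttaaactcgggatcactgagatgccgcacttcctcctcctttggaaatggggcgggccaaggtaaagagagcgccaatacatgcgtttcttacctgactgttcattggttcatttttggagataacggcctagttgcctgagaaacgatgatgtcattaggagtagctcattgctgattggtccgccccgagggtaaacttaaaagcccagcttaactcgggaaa

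Cells sense cholesterol through SREBP factors, which raise its synthesis, and LXR receptors, which raise its export. Of the 14 genes of the SREBP and LXR list (median 0.20), 4 were higher and 1 lower without overlap, the 4 being the LXR targets Abca1, Abcg1, Apoe and Mylip. With equal array medians it was 3 higher and 2 lower. Abca1, the cholesterol exporter, read 293, 255 and 176 at 4 h and 384, 982 and 637 at 24 h, a 2.64-fold difference without overlap (1.40 ± 0.34, adjusted p = 0.14). Its 2 other probe sets had the same sign. Apoe, a lipid carrier, had means of 399 and 847 (1.08 ± 0.31, adjusted p = 0.24), and Mylip, which marks the LDL receptor for breakdown, 1120 and 1670 (adjusted p = 0.34); both had groups without overlap. The 20 genes of cholesterol synthesis had a median of -0.10, with 15 negative differences and 2 members lower without overlap. Lbr, a sterol reductase of the inner nuclear membrane, had means of 5760 and 4550 (-0.34 ± 0.13, adjusted p = 0.44). The sterol element was found in 0 of 16 promoters of this list, against 0.833% of all genes.

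Inflammatory and interferon genes mostly read higher at 24 h. In the NF-kappaB and chemokine list, 25 of 31 differences were positive (median 0.31), with 9 members higher and 1 lower without overlap; with equal array medians it was 4 higher and 3 lower. Lcn2, an iron-binding acute phase protein, read 1310, 1280 and 980 at 4 h and 1970, 3470 and 3890 at 24 h (1.34 ± 0.64, adjusted p = 0.61). Ccl8, a monocyte chemokine, read 93.6, 69 and 83.5 at 4 h and 132, 134 and 136 at 24 h (0.72 ± 0.25, adjusted p = 0.38). Neither gene had overlapping groups, and the arrays of Ccl8 at 24 h were nearly equal. In the interferon list, 25 of 32 differences were positive (median 0.31), with 8 members higher and 1 lower without overlap; 8 were higher and 1 lower at an unadjusted p under 0.05. Xaf1, an interferon-induced antagonist of XIAP, read 141, 107 and 185 at 4 h and 209, 513 and 391 at 24 h (1.30 ± 0.29, adjusted p = 0.10). Gbp2, an interferon-induced GTPase, read 316, 304 and 272 at 4 h and 444, 620 and 859 at 24 h (1.06 ± 0.25, adjusted p = 0.14). The RNA sensor Ifih1 read 59.8, 103 and 96.4 at 4 h and 125, 280 and 208 at 24 h (1.21 ± 0.34, adjusted p = 0.21). In all 3 genes replicate 0 was the lowest 24 h array. Parp9 had means of 277 and 424, and its groups overlapped.

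An interferon-type element, a pair of TTTC motifs spaced by 2 bases of any kind and read on either strand, was found in the promoters of 14 of 25 interferon genes with an entry (56.0%), against 3.99% of all genes. The promoter of Gbp2 (chr3:142620413-142620712, plus strand) is shown as that of a member whose groups did not overlap, with the element in capitals.
Gbp2: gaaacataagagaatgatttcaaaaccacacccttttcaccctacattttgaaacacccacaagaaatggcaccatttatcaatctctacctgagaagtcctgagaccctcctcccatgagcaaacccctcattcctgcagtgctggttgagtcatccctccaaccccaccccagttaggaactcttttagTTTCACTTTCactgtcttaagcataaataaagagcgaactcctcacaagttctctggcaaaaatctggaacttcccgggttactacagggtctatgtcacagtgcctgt

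Markers of macrophages, which could bring inflammatory transcripts, were mostly below background. Of 9 such markers 3 were above background, and Ptprc was below it. At 24 h 3 of the 9 were higher without overlap, 2 of these being above background, and none was lower without overlap. The summed intensity of the 9 was 546 to 582 at 4 h and 676 to 803 at 24 h, without overlap. The part of macrophages in the inflammatory values was not tested. Of the 6 adipocyte markers measured, 4 were above background and all 6 had positive differences. Their summed intensity was 5230 to 5830 at 4 h, 6350 to 9450 at 24 h and 7080 to 9580 in untreated cells. Fabp4, a fatty acid carrier in this list, read 376, 338 and 359 at 4 h and 759, 668 and 862 at 24 h (1.09 ± 0.22, adjusted p = 0.070), without overlap; the part of such cells in the results was not tested. Epithelial markers summed to 197 to 311 at 4 h and 191 to 324 at 24 h, endothelial markers to 104 to 174 and 126 to 184, and mesothelial markers to 151 to 198 and 118 to 226. Neural markers, 3 of 7 above background, summed to 1070 to 1220 at 4 h and 1400 to 1560 at 24 h, and skeletal muscle markers, 1 of 8 above background, to 144 to 148 and 150 to 219. Like the macrophage and adipocyte sums, the neural and skeletal muscle sums were higher at 24 h than at 4 h without overlap. The part of neural and muscle cells in the results was not tested.

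Most matrix genes read higher at 24 h than at 4 h. Of 20 collagen chain genes 18 had positive differences (median 0.32), 4 of them without overlap and none lower without overlap; with equal array medians 3 were higher and 1 lower without overlap. Col12a1, of a fibril-associated collagen, read 492, 474 and 523 at 4 h and 609, 708 and 816 at 24 h (0.51 ± 0.22, adjusted p = 0.53). Col6a1, of the microfibrillar collagen VI, read 4280, 4220 and 4490 at 4 h and 4400, 7890 and 7510 at 24 h, so that replicate 0 at 24 h lay within the 4 h group (adjusted p = 0.50). Of 31 other matrix genes 25 differences were positive (median 0.29), and 13 members were higher and none lower without overlap, or 7 and 1 with equal array medians.

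Tgfbi, a secreted adhesion protein, read 3620, 3460 and 3120 at 4 h and 5520, 7430 and 6400 at 24 h. Its groups did not overlap, the difference was 1.89-fold (0.92 ± 0.20, adjusted p = 0.097), and its 3 other probe sets gave 0.91, 0.82 and 0.74. Loxl1, a crosslinking enzyme of elastic fibres, read 454, 418 and 402 at 4 h and 473, 835 and 775 at 24 h, a narrow gap at replicate 0 (0.67 ± 0.20, adjusted p = 0.26). Dcn, the proteoglycan decorin, had means of 2320 and 4050 (0.80 ± 0.27, adjusted p = 0.35), and Mfap4, a microfibril protein, 211 and 617 (1.55 ± 0.61, adjusted p = 0.46). Both were without overlap.

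Of the 21 metalloproteases, related proteases and inhibitors, 17 had positive differences (median 0.36) and 9 were higher without overlap. Adamts4, an aggrecan-cleaving protease, read 429, 416 and 462 at 4 h and 822, 852 and 735 at 24 h (0.88 ± 0.24, adjusted p = 0.18). Plat, the tissue plasminogen activator, read 1410, 1430 and 1090 at 4 h and 2070, 2160 and 2120 at 24 h (0.71 ± 0.29, adjusted p = 0.49). Mmp19 had means of 165 and 359 (adjusted p = 0.38), and the stromelysin gene Mmp3 1100 and 1610 (adjusted p = 0.71). In all 4 genes every 24 h array was above every 4 h array.

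DNA synthesis genes read lower at 24 h than at 4 h. Of 37 genes of S phase and E2F control, 35 had negative differences (median -0.33, -0.43 to -0.21 over the alternatives), and 22 were lower without overlap against 7.32% of all genes; none was higher without overlap. At an unadjusted p under 0.05, 12 were lower and none higher. Pole2, a subunit of DNA polymerase epsilon, read 1320, 1190 and 1320 at 4 h and 1050, 1010 and 783 at 24 h (-0.44 ± 0.12, adjusted p = 0.20). Prim1, the primase catalytic subunit, read 4020, 4170 and 3980 at 4 h and 3420, 3030 and 2580 at 24 h (-0.44 ± 0.13, adjusted p = 0.24). E2f7, a repressor of the E2F family, read 1140, 1130 and 1160 at 4 h and 939, 805 and 899 at 24 h (-0.38 ± 0.11, adjusted p = 0.26). All 3 genes were without overlap, with close readings at 4 h. E2f2, an activator of the family, was at least 1.64-fold lower at 24 h, where 2 of 3 readings were below background (adjusted p = 0.22).

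Replication licensing genes load the MCM helicase onto origins. Of 25, 24 had negative differences (median -0.24, -0.34 to -0.20 over the alternatives), and 15 were lower without overlap, also with equal array medians. Mcm10, which links the helicase to polymerase, read 1340, 1310 and 1390 at 4 h and 1040, 1010 and 883 at 24 h (-0.47 ± 0.15, adjusted p = 0.29). Mcm3, a helicase subunit, read 6950, 7120 and 6920 at 4 h and 6660, 5820 and 4860 at 24 h (-0.29 ± 0.14, adjusted p = 0.60). Both had groups that did not overlap, and replicate 2 was the lowest 24 h array in each. Gins1 had means of 1660 and 1270 and Cdc45, its partner in the active helicase, 1400 and 1130, also without overlap.

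The E2F element, searched as TTTCGCGC or TTTGGCGC on either strand, was found in the promoters of 6 of 31 S phase genes with an entry (19.4%) and 7 of 20 licensing genes (35%), against 0.929% of all genes. Shown are Pole2 (chr12:69228141-69228440, minus strand) and Mcm3 (chr1:20820263-20820562, minus strand), 1 gene of each list, with the element in capitals.
Pole2: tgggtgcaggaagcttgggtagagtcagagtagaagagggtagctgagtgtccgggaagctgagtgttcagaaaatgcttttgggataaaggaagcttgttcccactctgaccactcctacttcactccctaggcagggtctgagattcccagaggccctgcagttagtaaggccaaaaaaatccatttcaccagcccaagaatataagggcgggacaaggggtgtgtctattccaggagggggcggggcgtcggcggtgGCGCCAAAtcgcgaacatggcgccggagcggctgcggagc
Mcm3: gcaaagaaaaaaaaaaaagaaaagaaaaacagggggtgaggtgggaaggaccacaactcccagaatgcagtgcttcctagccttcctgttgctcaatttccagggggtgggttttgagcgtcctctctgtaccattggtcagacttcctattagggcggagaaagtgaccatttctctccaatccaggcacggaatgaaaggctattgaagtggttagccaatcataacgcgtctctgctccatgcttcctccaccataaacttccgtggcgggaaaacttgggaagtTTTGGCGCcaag

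Repair genes that act with replication followed the same direction. In homologous recombination 20 of 24 differences were negative (median -0.22, -0.32 to -0.16 over the alternatives), with 9 members lower and 2 higher without overlap. Besides Exo1 these included Palb2, which joins BRCA1 to BRCA2 and read 289, 301 and 310 at 4 h and 216, 204 and 189 at 24 h (-0.56 ± 0.16, adjusted p = 0.21). Brca1 read 1160, 1270 and 1330 at 4 h and 982, 1040 and 869 at 24 h (-0.38 ± 0.11, adjusted p = 0.21), without overlap. Among 29 genes of break sensing and end joining, 5 were lower and 3 higher without overlap (median -0.05, and -0.15 without replicate 0 of the 24 h group). Clspn, the checkpoint mediator claspin, read 1660, 1530 and 1710 at 4 h and 1150, 1090 and 1080 at 24 h (-0.56 ± 0.15, adjusted p = 0.18). Hus1, of the checkpoint clamp, had means of 587 and 407 (adjusted p = 0.37), and Rnf168, a ubiquitin ligase at breaks, 947 and 733 (adjusted p = 0.34).

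Mitosis genes had smaller differences. The medians were -0.18 for 26 genes of mitotic entry (7 lower, 2 higher without overlap), -0.14 for 30 kinetochore genes (5 lower, 1 higher) and -0.08 for 34 genes of kinesins and cytokinesis (3 lower, 1 higher). Without replicate 2 of the 24 h group these medians were -0.04, -0.05 and -0.03, and over all arrays left out in turn they ranged from -0.22 to -0.04, -0.19 to -0.05 and -0.18 to -0.02. With equal array medians 10 mitotic entry, 7 kinetochore and 7 kinesin and cytokinesis genes were lower without overlap and none was higher. Foxm1, the transcription factor of late cell cycle genes, read 765, 891 and 951 at 4 h and 761, 560 and 669 at 24 h (-0.40 ± 0.16, adjusted p = 0.50). Top2a, the topoisomerase of chromosome condensation, had means of 7850 and 6350 without overlap (adjusted p = 0.54). Bub1b, a spindle checkpoint kinase, went against the list with readings of 2140, 2180 and 2490 at 4 h and 3320, 4060 and 2370 at 24 h, which overlapped (0.49 ± 0.18, adjusted p = 0.43). Of 34 genes of Myc and ribosome biogenesis 31 had negative differences (median -0.19), and 5 were lower and 1 higher without overlap; with equal array medians 10 were lower, where 1970 of all 18193 genes were. Odc1, the polyamine enzyme and Myc target, read 7410, 7810 and 7520 at 4 h and 6440, 5600 and 5210 at 24 h (-0.40 ± 0.15, adjusted p = 0.41).

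**Figure D3:**
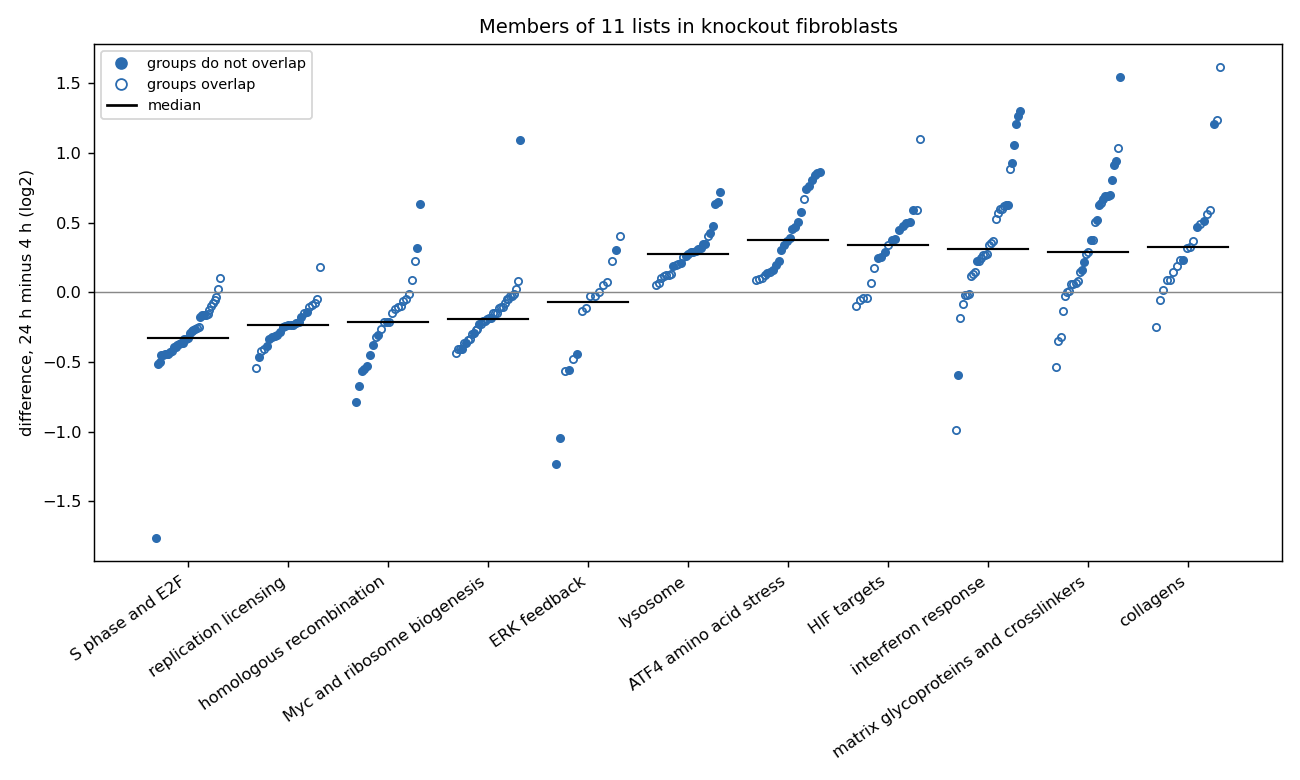
Difference between 24 h and 4 h (log2) for each measured member of 11 lists; filled points have groups of 3 arrays that do not overlap, open points overlap, and bars are medians. All members of the lysosome and ATF4 lists lie above 0, and 35 of 37 S phase and 24 of 25 licensing members lie below it.

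Immediate early genes, the first transcripts induced by growth factors and stress, had no common direction between 4 h and 24 h. Of 30 members 15 differences were positive and 15 negative (median 0.00), with 7 lower and 3 higher without overlap. Jun, an AP-1 subunit, read 2290, 2230 and 1990 at 4 h and 1620, 1390 and 1650 at 24 h (-0.48 ± 0.20, adjusted p = 0.50). Ccn1, a secreted matricellular protein, had means of 7110 and 4670, and the differentiation inhibitor Id1 5050 and 3420, both without overlap. Atf3, a stress-induced repressor, had means of 142 and 268 with overlapping groups (adjusted p = 0.44).

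Among 16 feedback inhibitors and targets of ERK signalling, 4 were lower and 1 higher without overlap (median -0.07, -0.18 to -0.01 over the alternatives). Dusp5, a nuclear ERK phosphatase, read 422, 364 and 229 at 4 h and 138, 109 and 181 at 24 h, a 2.35-fold difference (-1.23 ± 0.38, adjusted p = 0.28). Dusp6, its cytoplasmic counterpart, read 760, 775 and 744 at 4 h and 678, 368 and 699 at 24 h (-0.44 ± 0.28, adjusted p = 0.76). Phlda1 had means of 1880 and 1280 (adjusted p = 0.55), and Etv4, an ETS factor, 461 and 223 (adjusted p = 0.75). None of the 4 had overlapping groups. The AP-1 site TGANTCA was found in 1 of 23 immediate early promoters and 0 of 12 ERK feedback promoters, against 8.97% of all genes, and the serum response element in 3 of 23 and 1 of 12, against 1.81%.

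Targets of p53 were near the median of all genes. The arrest and feedback list had a median of -0.02 (20 genes, 3 higher and none lower without overlap), the cell death list 0.11 (15 genes, 2 higher and 1 lower) and the repair and metabolism list 0.13 (15 genes, 1 higher and 1 lower). With equal array medians the arrest and feedback list had 2 higher and 5 lower without overlap. Cdkn1a, the gene of the kinase inhibitor p21 that holds the cycle, read 234, 284 and 193 at 4 h and 321, 484 and 354 at 24 h. The groups did not overlap (0.70 ± 0.39, adjusted p = 0.70), and a second probe set gave 0.51. Mdm2, the p53 ubiquitin ligase, read 885, 851 and 801 at 4 h and 838, 827 and 817 at 24 h (-0.03 ± 0.53, adjusted p = 1.0), and Ccng1, cyclin G1, had means of 1930 and 1780 (-0.12 ± 0.22, adjusted p = 0.96). Both overlapped between times. Gadd45a, a stress sensor, read 548, 489 and 472 at 4 h and 886, 967 and 870 at 24 h (0.85 ± 0.26, adjusted p = 0.28), and Trp53inp1, a p53 cofactor, had means of 99.6 and 214 (adjusted p = 0.42). Sesn2, a sestrin that restrains mTORC1, read 598, 422 and 330 at 4 h and 600, 825 and 627 at 24 h, which left the groups almost touching.

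Genes of the PI3 kinase and FOXO pathway, in which PKBalpha acts, had a median of 0.09 (24 genes, 3 higher and 2 lower without overlap), which turned to -0.02 with equal array medians and to -0.09 without replicate 2 of the 24 h group. Sesn3, a FOXO-induced sestrin, read 393, 389 and 368 at 4 h and 535, 759 and 712 at 24 h (0.79 ± 0.19, adjusted p = 0.15). Pik3ip1, an inhibitor of PI3 kinase, had means of 173 and 328 (adjusted p = 0.62). Both were without overlap. In the BCL2 family the median was 0.00, with 3 higher and 3 lower without overlap, and Bmf, a pro-death member, had means of 58.2 and 118 (1.02 ± 0.30, adjusted p = 0.24).

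Hypoxia-inducible genes were higher in 15 of 19 cases (median 0.34), with 10 higher and none lower without overlap; with equal array medians the 10 became 2. P4ha1, a collagen prolyl hydroxylase, read 1600, 1570 and 1360 at 4 h and 1740, 2340 and 2150 at 24 h (0.45 ± 0.17, adjusted p = 0.42), and Bnip3, a mitophagy receptor, had means of 1270 and 1910 (adjusted p = 0.46). Pfkp, a phosphofructokinase, read 606, 577 and 597 at 4 h and 787, 1070 and 883 at 24 h (0.61 ± 0.13, adjusted p = 0.070), in a glycolysis list with a median of 0.18 and 4 of 19 members higher without overlap. The 2 other, dimmer probe sets of Pfkp gave 0.13 and 0.70. Of 23 NRF2 and glutathione genes 8 were higher and 1 lower without overlap (median 0.12), or 3 and 2 with equal array medians. The glutathione transferase Gstt1 had means of 443 and 851 (0.94 ± 0.27, adjusted p = 0.21) and Gstm2 500 and 762 (adjusted p = 0.18), both without overlap.

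In the remaining lists the small heat shock protein gene Cryab stood out among 23 chaperones (median 0.06), reading 256, 245 and 188 at 4 h and 411, 679 and 582 at 24 h (1.26 ± 0.29, adjusted p = 0.13), without overlap. The median was 0.20 for 19 circadian clock genes, with 5 higher without overlap, among them the nuclear receptor Rora (371 and 642, adjusted p = 0.42). For 31 TGF-beta and BMP genes it was -0.04, with 4 lower and 2 higher without overlap, and Tgfbr1, a TGF-beta receptor, had means of 886 and 663 (adjusted p = 0.43). With equal array medians 3 clock genes were higher and 2 lower without overlap, and 8 TGF-beta and BMP genes were lower and 1 higher. The 28 Wnt genes had a median of 0.06, the 16 IGF system genes 0.10, the 16 smooth muscle genes 0.04, the 19 fatty acid genes 0.08 and the 12 prostaglandin genes 0.13. Equal array medians turned the median negative in the Wnt, IGF, smooth muscle, fatty acid, chaperone and BCL2 lists. Leaving out 1 array turned the sign of the median in the IGF, smooth muscle, fatty acid, TGF-beta, BCL2, p53 arrest and immediate early lists. Ccnd1, cyclin D1, had means of 3440 and 2440 without overlap (-0.49 ± 0.18, adjusted p = 0.40), and Igf2r, which clears IGF2, 2170 and 3720, also without overlap (0.78 ± 0.27, adjusted p = 0.39).

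Beside untreated knockout cells, several genes called at 4 h read at 24 h nearer to the untreated level than at 4 h. Cldn15, Maats1 and Hey1 were not called at 4 h (adjusted p = 0.31, 0.59 and 0.67, limma), and their 24 h means lay farther from untreated. The means untreated, at 4 h and at 24 h were 48.7, 33.0 and 99.2 for Cldn15 and 26.6, 19.6 and 71.9 for Maats1. For Hey1 they were 55.0, 78.0 and 17.4. Cldn15 at 4 h, Maats1 untreated and at 4 h, and Hey1 at 24 h were below background. Nor did these genes pass at 24 h against untreated cells (adjusted p = 0.37, 0.24 and 0.42, limma). The comparisons share the 4 h or the 24 h arrays, so values are given side by side only. At 4 h against untreated cells 67 genes passed (0.368%), 27 higher (0.148%) and 40 lower (0.22%), with 2358 (13%) at an unadjusted p under 0.05. Saa3 fell at 4 h (7960 untreated, 3930 at 4 h; -1.02 ± 0.14, adjusted p = 0.017) and read 6870 at 24 h. C1s1 fell at 4 h (869 to 401, adjusted p = 0.034) and read 914 at 24 h, and Sort1 fell (323 to 174, adjusted p = 0.034) and read 310. Tgfbi fell (6740 to 3390, adjusted p = 0.039) and read 6400, and Abca1 fell (714 to 236, adjusted p = 0.045) and read 622. Exo1 rose at 4 h (865 to 1510, adjusted p = 0.034) and read 946 at 24 h, Mcm10 rose (813 to 1350, adjusted p = 0.039) and read 976, and Pole2 rose (858 to 1280, adjusted p = 0.045) and read 940. Jun rose at 4 h (1040 to 2170, adjusted p = 0.034) and read 1550 at 24 h.

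The number of calls at 4 h moved with the arrays used. Without any 1 of the 6 arrays they numbered 0 to 18, namely 2, 3 and 18 without untreated replicate 0, 1 or 2, and 1, 0 and 3 without 4 h replicate 0, 1 or 2. With equal array medians no gene passed in limma (2081 at an unadjusted p under 0.05), on the compared arrays alone none (2358), and without the 5 arrays that stand apart 166.

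At 24 h against untreated cells no gene passed in limma, with 1064 (5.85%) at an unadjusted p under 0.05, and 0 to 6 passed when 1 array was left out. With the replicate number as a block 1 gene rose, the nuclear receptor gene Nr4a1, named after its values were seen. In S phase and E2F genes the medians were 0.31 at 4 h against untreated cells and 0.04 at 24 h, and in the ATF4 list -0.35 and -0.03. For collagens they were -0.50 and -0.11, and for lysosomal genes -0.26 and -0.01. ERK feedback genes read otherwise, with medians of 0.74 at 4 h and 0.52 at 24 h, as did immediate early genes, with 0.59 and 0.55. They were not the only such lists. The NF-kappaB list had -0.037 and 0.234, the interferon list -0.123 and 0.115, the prostaglandin list 0.174 and 0.346 and the p53 cell death list -0.09 and -0.199. Mean levels per array, set to the 4 h mean, were -0.21, -0.29 and -0.46 for S phase genes at 24 h and -0.25, -0.25 and -0.56 in untreated cells. For the ATF4 list they were 0.31, 0.70 and 0.27 at 24 h and 0.50, 0.54 and 0.40 in untreated cells. In both lists all arrays of both groups lay on 1 side of the 4 h arrays.

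**Figure D4:**
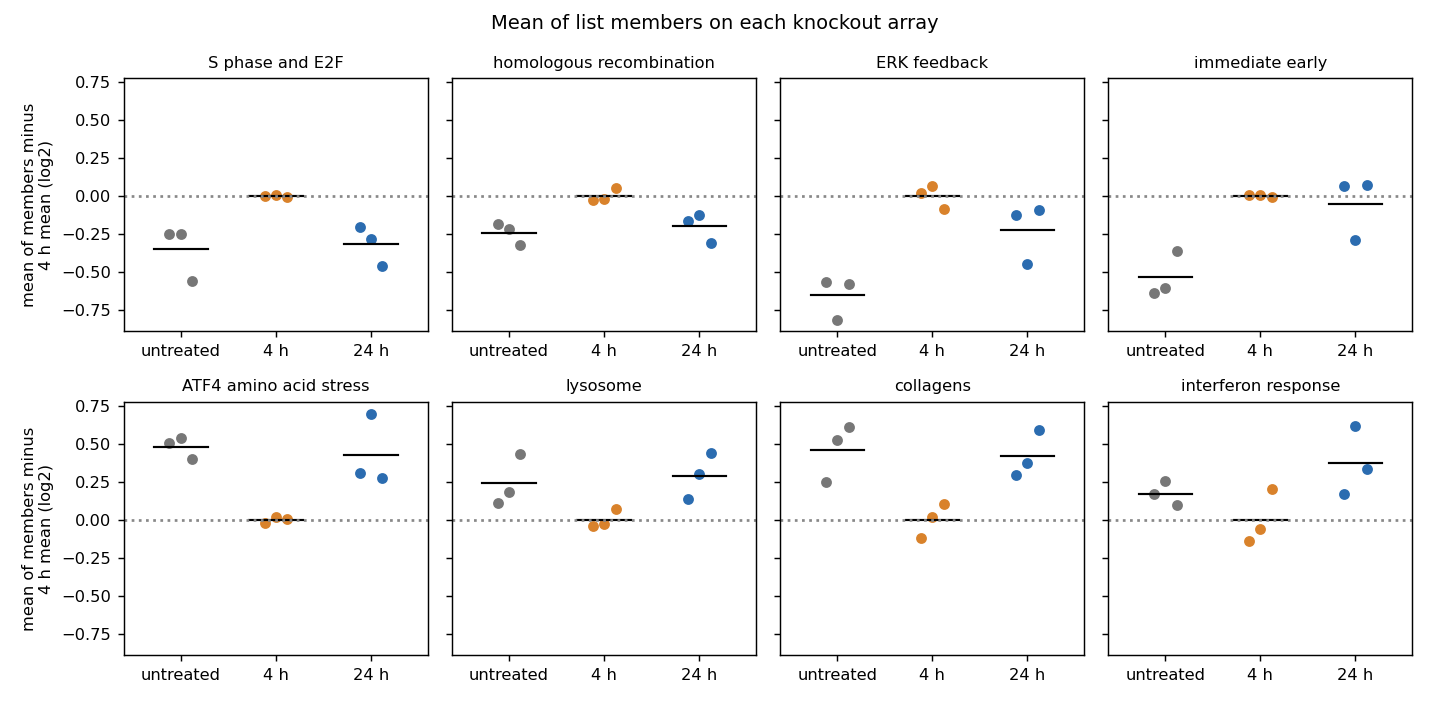
Mean log2 level of the members of 8 lists on each knockout array, less the mean of the 4 h arrays; points are arrays and bars are group means. In the S phase and recombination lists the untreated and 24 h arrays lie below the 4 h arrays, in the ATF4, lysosome and collagen lists above them, and in the ERK feedback list the untreated arrays, at -0.82 to -0.57, lie below all 24 h arrays.

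Whether the change from 4 h to 24 h differed between lines was tested directly. The wild-type groups follow the titles, while the description of the 6 wild-type arrays titled 4 h or 24 h calls them untreated, a doubt that touches every wild-type value here. No gene passed in limma for knockout minus wild type (1014, 5.57%, at an unadjusted p under 0.05) or for knockout minus line R (624, 3.43%). The count was 0 to 4 and 0 to 1 when 1 array was left out. Within the lines, 473 genes passed in the wild type (2.6%) and 286 in line R (1.57%); these counts were not compared by a test of their own. Cldn15 had differences of 1.59 in the knockout, 0.93 in the wild type and 0.65 in line R (adjusted p = 0.92 for knockout against wild type). Its wild-type means were 1180 at 4 h and 2240 at 24 h, far above its knockout readings. Cd74 had differences of 1.58 in the knockout, 0.29 in the wild type and 2.22 in line R, with an adjusted p of 0.60 for knockout against wild type. Hey1 had -2.17, -0.04 and 0.28 in the same order (adjusted p = 0.59), and Saa3 0.81, 0.55 and 1.47 (adjusted p = 0.97). The smallest adjusted p for knockout minus wild type was 0.22. Of the genes at that p, the spindle kinesin gene Kifc1, singled out after its values were seen, had 0.10 in the knockout and -1.07 in the wild type (difference 1.17 ± 0.22).

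List medians in the 3 lines had the same sign for most of the lists with large values in the knockout. The ATF4 list had 0.38 in the knockout, 0.39 in the wild type and 0.34 in line R, the lysosome list 0.27, 0.46 and 0.46, and the S phase list -0.33, -0.50 and -0.55. Mitotic entry genes had -0.18, -0.59 and -0.24, and kinetochore genes -0.14, -0.59 and -0.19. For these lists the difference was tested gene by gene only. In the mitotic entry list the smallest adjusted p for knockout minus wild type was 0.39, of Ccnf, the gene of cyclin F, at -0.31 in the knockout and -1.24 in the wild type. Cholesterol synthesis genes had -0.10, 0.37 and -0.17, and NF-kappaB genes 0.31, 0.13 and -0.09.

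**Figure D5:**
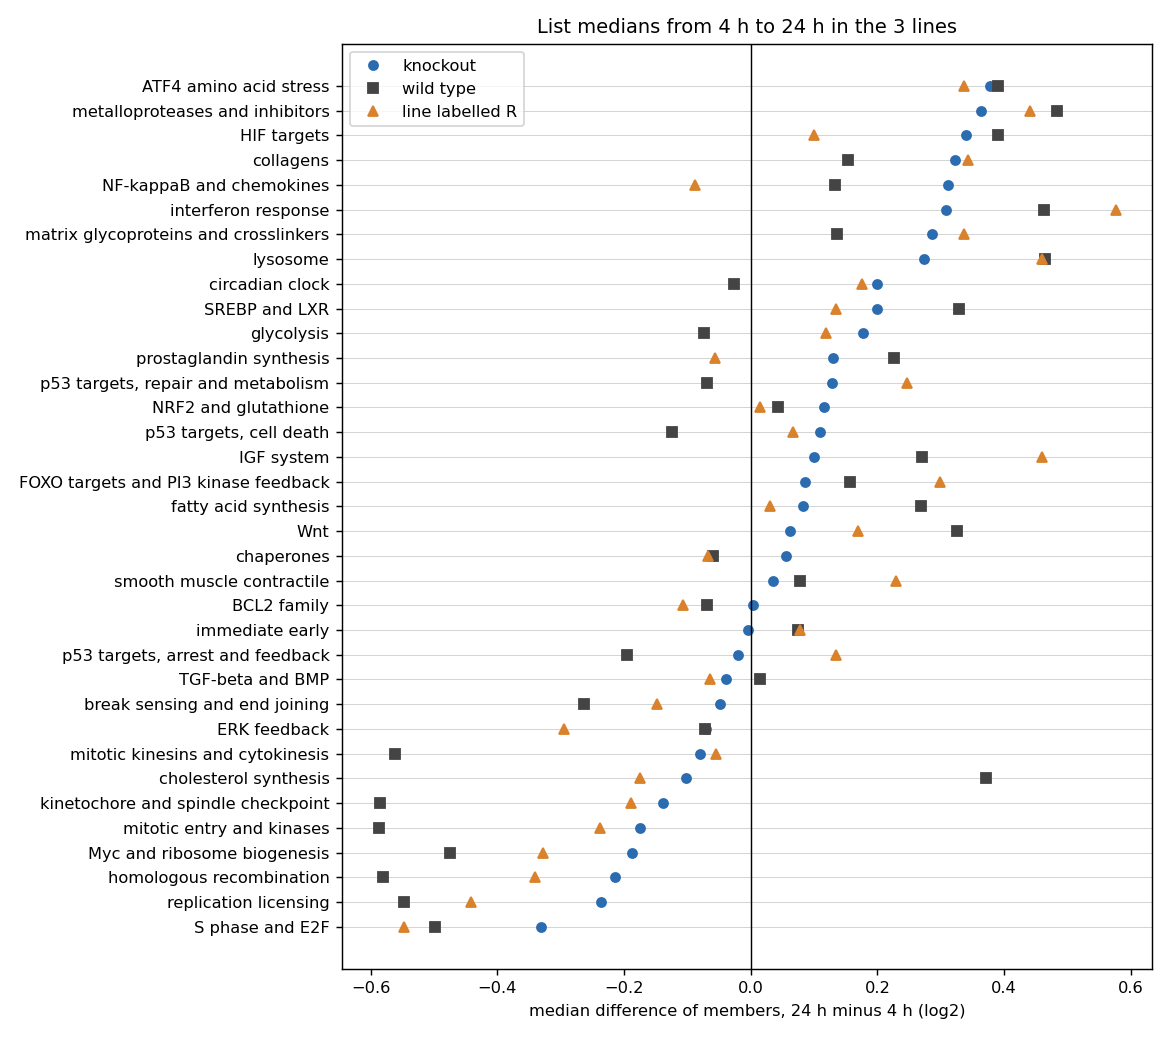
Median difference between 24 h and 4 h (log2) of the measured members of 35 lists in the knockout (circles), the wild type (squares) and line R (triangles). S phase, licensing and recombination lists are below 0 and ATF4, lysosome and interferon lists above 0 in all lines. Mitosis lists lie at -0.59 to -0.56 in the wild type, -0.18 to -0.08 in the knockout and -0.238 to -0.055 in line R.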

How the data were processed

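The authors deposited linear intensity values for 45101 Affymetrix probe sets on 27 arrays, scaled to a mean of 500.003 per array after trimming 2% at each end. RMA and GCRMA appear in the submitters' processing notes with neither role nor version. The values, 0.00523 to 45330 with array medians of 54.4 to 80.0, do not have the form either gives, so the summary method is not known. Per the labels' protocols, TRIZOL was used to take RNA and the label was biotin.

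From the deposited intensities log2 values and fold changes were computed here, with no offset and no further normalization. Control probe sets (64) and those with several (932) or no gene symbols (9160) were left out, and the brightest probe set stood for each gene (18193 genes, 9010 with several). Background was the highest of 243 values from 9 Y-linked probe sets. The median SD was 1.44 for genes in the dimmest 10% and 0.177 for those in the brightest 10%, and the number of arrays limits precision.

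Tests used limma 3.58.1 (R 4.3.3) with 9 group means and 18 residual degrees of freedom, were two-sided, and were tested on simulated data. With 3 against 3 arrays an exact permutation test cannot go below p = 0.1. Names and promoters came from RefSeq tables (GRCm38.p6). Deviations of same-numbered knockout arrays correlated at 0.007, 0.047 and 0.057 between 4 h and 24 h, at 0.039, 0.006 and 0.113 between untreated and 4 h, and at 0.127, 0.195 and 0.354 between untreated and 24 h. Only the correlations of untreated with 24 h arrays were above 0.1, a limit chosen here, in every pair. That is a hint of pairing from the data that no label states, and differently numbered arrays were not correlated beside them. The 0.354 was of replicate 2, whose untreated and 24 h arrays had the highest Gapdh differences of the knockout arrays (-0.163 and -0.298). Their part in the correlation was not tested. Alternatives were a replicate block, fewer arrays, a variance trend, a background filter, an offset, other scalings and other probe set rules.

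Members and lists were chosen with earlier results of these data known, and the ATF4 and interferon elements were added after the data were seen. Motifs were planned for list members that passed the main comparison, but none passed, so all measured members with a promoter were searched. The rule for named genes took Akt1, Akt2, Cdkn1a, Mdm2 and Ccng1, genes past the threshold without overlap and with the higher mean above background (filled to 8 per direction by smallest p, also for the differences between lines), and up to 4 members per list by smallest p. The text uses part of these, and 1 lower gene the rule took is not reported here.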

Additional observations from a re-analysis of the deposited data

How the results depend on the processing

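The count of 1 gene for 24 h against 4 h became 3 with the replicate block, 0 on the compared or the knockout arrays only, 56 without the 5 arrays that stand apart, 25 with an intensity trend and robust prior, 34 above background, 5 with an offset of 16, 0 after quantile normalization or equal medians, 2 with each probe set by itself, 32 with filter, trend and robust prior together (added after seeing the data) and 0 to 78 without 1 array. For 4 h against untreated, 67 genes became 0 on the compared arrays, 2 on the knockout arrays, 166 without the 5 arrays, 199 with the trend, 288 above background, 40 after quantile normalization, 0 with equal medians, 22 with the mean of probe sets, 304 with filter and trend and 0 to 18 without 1 array. For 24 h against untreated, 0 became 1 with the block, 6 without the 5 arrays, 1 with the trend, 1 above background, 2 with the offset, 1 with filter and trend and 0 to 6 without 1 array. Knockout minus wild type gave 1 without the 5 arrays and 0 to 4 without 1 array, and knockout minus line R 0 to 1. Akt2 turned to -0.065 with equal medians and ranged from -0.031 to 0.145 without 1 array, Mdm2 ranged from -0.069 to 0.003 without 1 array, and Neu1 turned to -0.45 with the mean of probe sets. The cause of these changes was not tested. Filters tested fewer genes, and fits with arrays left out had fewer samples and gave fewer calls in some cases and more in others. Whether the numbers pair arrays is not known, since the correlations of same-numbered untreated and 24 h arrays are a hint only. For 24 h against 4 h the block changed no call of a named gene besides those of Maats1 and Sort1, which passed with it. The dimmest 10% of genes, with a median SD of 1.44, could show only large differences.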

Other observations

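Of the 34 genes that passed when only genes above background were tested, 8 that are described nowhere above are given here, named after their values were seen; each pair of adjusted p values is from that test and from the test of all genes. Cpxm1, a carboxypeptidase-like protein, read 511, 451 and 455 at 4 h and 771, 1240 and 1110 at 24 h (1.11 ± 0.22, adjusted p = 0.031 and 0.070, limma). Egfr, the epidermal growth factor receptor, read 228, 228 and 224 at 4 h and 324, 351 and 384 at 24 h (0.64 ± 0.13, adjusted p = 0.031 and 0.070). Cdon, a co-receptor of hedgehog signalling, had means of 1560 in untreated cells, 684 at 4 h and 1240 at 24 h (adjusted p = 0.036 and 0.084), and its fall at 4 h passed over all genes (-1.19 ± 0.18, adjusted p = 0.018). Fap, the fibroblast activation protease and 1 of the fibroblast markers, read 118, 113 and 117 at 4 h and 198, 269 and 250 at 24 h (1.03 ± 0.21, adjusted p = 0.033 and 0.073). In these 4 genes no array of 1 time reached the other.

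Gpt2, the mitochondrial alanine aminotransferase, had means of 623 and 1240 (adjusted p = 0.048 and 0.11), and Gpx7, a glutathione peroxidase of the endoplasmic reticulum, 750 and 1210 (adjusted p = 0.031 and 0.070). Isg20, an interferon-induced exonuclease read 68.1, 42.5 and 50.7 at 4 h and 120, 169 and 108 at 24 h (adjusted p = 0.031 and 0.070). The imprinted zinc finger gene Peg3 had means of 769 and 1310 (adjusted p = 0.047 and 0.11).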
